A study of Mus musculus with 12 samples.

Results

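Livers of mice fed chow or a high fat, cholesterol and fructose (HFCF) diet were compared among those labelled HuRHep-/-, the label for deletion of HuR in hepatocytes. The comparison takes the 6 libraries whose labels give this genotype out of the 12 libraries of the series, 3 from HFCF-fed and 3 from chow-fed male mice. The chow and HFCF counts were deposited in 2 separate tables, which were joined by Ensembl identifier. Of the 20093 genes listed in both tables, 14190 passed a filter on low counts in these 6 livers and were tested.

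All 12 mice were C57BL/6N males that carried the floxed Elavl1 allele (HuR flox/flox), so the WT controls carry it too. Mice of 4 to 6 months received AAV8-Tbg-Cre, an adeno-associated virus in which the hepatocyte promoter Tbg drives Cre recombinase, or AAV8-Tbg-null without Cre as the WT control. The HFCF diet held 40 kcal% fat, 2% cholesterol and 20 kcal% fructose and was fed for 16 weeks. The labels give no duration for the normal chow diet. The study's methods describe a cross with albumin-Cre mice at a younger age instead of a virus, and the counts do not show which description holds. Tbg drives Cre in hepatocytes, so other liver cells would keep the allele, whereas albumin-Cre is also active in precursors that bile duct cells share. Each library is 1 column of a table and nothing names cages or litters, so p-values measure the spread between these livers. Because the diets stand in separate tables, an effect of diet and an effect of table, sequencing batch or age at collection cannot be told apart in any result.

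HuR is an RNA-binding protein that binds AU-rich elements, mostly in the tails of mRNAs, and affects how long these mRNAs last and how well they are translated. In the liver, excess dietary cholesterol represses SREBP2, the transcription factor that drives cholesterol synthesis, and its oxidized products activate LXR, a nuclear receptor that induces sterol export and, through SREBP1, fatty acid synthesis. Fructose feeds lipogenesis as well. Long feeding of such a diet is known to fill hepatocytes with lipid droplets, and to draw macrophages and activate stellate cells, the matrix-producing cells of the liver.

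HuR is encoded by Elavl1 (ENSMUSG00000040028, GRCm38 chr8:4285382-4325413, minus strand). The gene had raw counts of 1475, 1265 and 1261 in the chow livers labelled HuRHep-/- and 1299, 1242 and 1271 in the HFCF livers with that label. In the livers labelled WT they were 938, 876 and 948 on chow and 904, 791 and 849 on HFCF. Every liver labelled HuRHep-/- thus held more Elavl1 counts than every liver labelled WT, the opposite of what a deletion would leave. Whether the genotype labels are exchanged, or the deleted allele still yields counted reads, was not tested, and the genotype is given throughout as a label. Reads were summed over the gene, so its exons cannot be looked at separately. Within the livers labelled HuRHep-/-, the normalized counts of Elavl1 were 1545, 1416 and 1404 on chow and 1156, 1149 and 1212 on HFCF. The groups did not overlap, and the difference of -0.31 on the log2 scale (standard error 0.0628; limma, Benjamini-Hochberg adjusted p = 0.00692) was smaller than the 1.5-fold minimum for a call. Among 13 tested genes for HuR and other AU-rich element binding proteins, 0 were called (median change -0.06 on the log2 scale).

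Gene counts in the 6 livers summed to between 32723842 and 35540263 per library. Normalized counts are counts scaled by trimmed mean of M-values (TMM) factors among these 6 libraries. They do not correct for gene length, so levels are compared between livers and not between genes. The mitochondrially encoded genes took 10.4 to 12.9% of counts on chow and 11.3 to 12.1% on HFCF, and 0 of 13 were called (median log2 fold change -0.30). For 32 cytosolic ribosomal protein genes the count was 0 and the median -0.26. Among 14 immediate early genes, which respond within minutes to stress and handling, 9 were called higher and 0 lower (median 0.89). Of these 9, Fosb and Egr2 passed the filter with the help of HFCF livers. Of the hepatocyte markers Alb, the gene of serum albumin, was at 1786233, 1996117 and 1928702 normalized counts on chow and 1451984, 1453727 and 1546103 on HFCF (log2 fold change -0.36, adjusted p = 0.277).

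A gene was called when its adjusted p was at most 0.05, its fold change at least 1.5, and its counts summed to at least 10 in each group. In livers labelled HuRHep-/-, HFCF feeding was accompanied by 2896 called genes, 20.4% of those tested. Of these, 2084 were higher on HFCF (14.7% of the genes tested) and 812 were lower (5.72%). A change of at least 4-fold was found for 245 of the higher and 70 of the lower genes. Of the higher genes, 434 were below the level of the filter in at least 1 chow liver and passed it with the help of HFCF livers, so for these a higher value on HFCF was in part a condition of being tested. The same holds, with the diets exchanged, for 44 of the lower genes. The median log2 fold change over all tested genes was -0.02. Values of the 3 chow and 3 HFCF livers did not overlap for 56.2% of all tested genes, and for 2881 of the 2896 called genes. With 3 livers against 3, the smallest p that exact permutation of a single gene allows is 0.1. When the test asked for a change beyond 1.5-fold, instead of a difference from 0 with a 1.5-fold estimate, 558 genes passed, 407 higher and 151 lower. With no minimum fold change, 2812 genes were called higher and 3166 lower, so the excess of higher genes depended on that minimum.

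**Figure D1:**
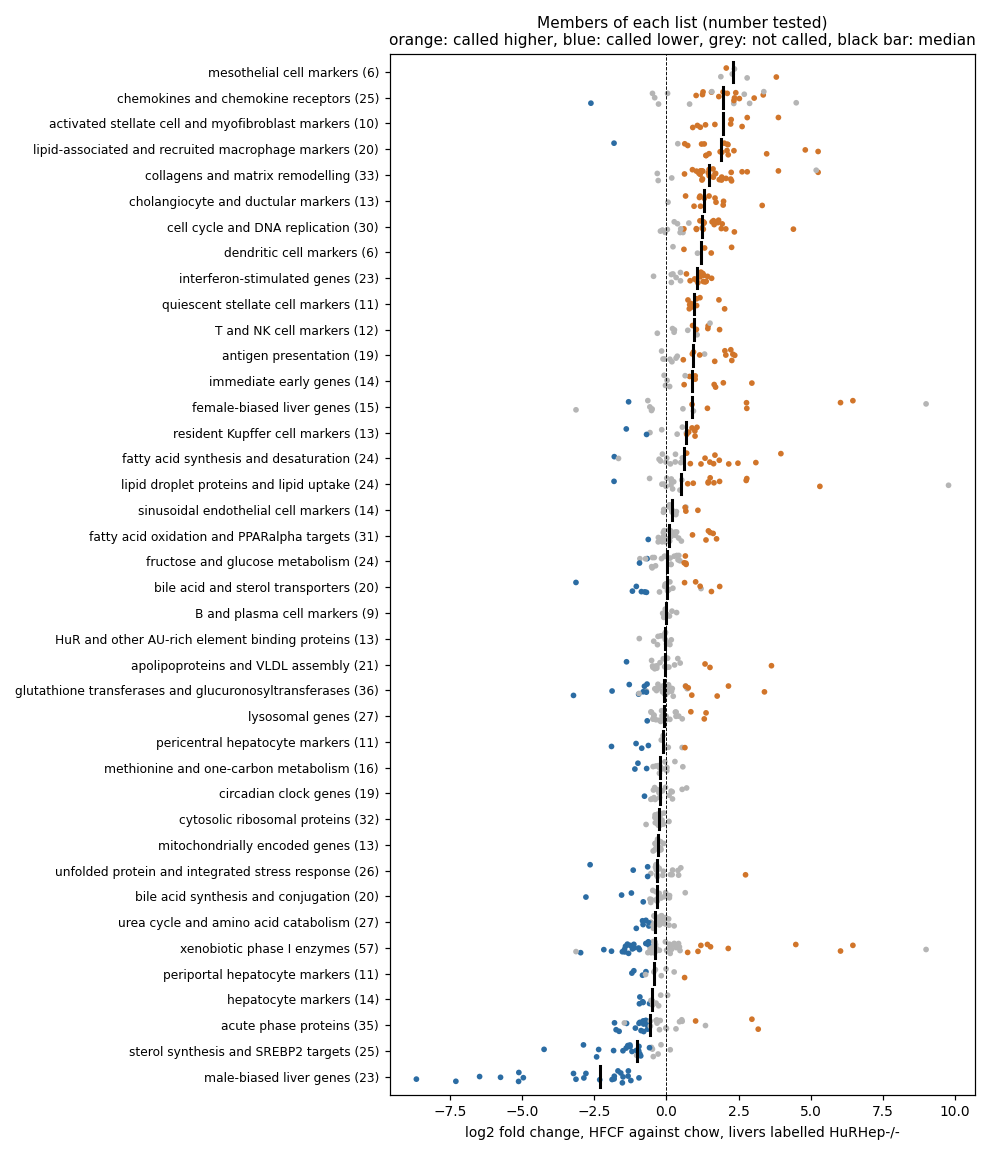
Log2 fold change, HFCF against chow, of the tested members of pathway and cell type lists with at least 6 tested genes, and of 6 further lists, in livers labelled HuRHep-/- (1 point per gene, number tested in parentheses, black bar at the median). The median is -2.31 for male-biased liver genes and -1.03 for sterol synthesis genes. Matrix, myofibroblast, macrophage and chemokine lists lie on the right.

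Genes of sterol synthesis and other SREBP2 targets were lower on HFCF. Of 25 tested, 18 were called lower and 0 higher, and the median change was -1.03 on the log2 scale. Sqle encodes squalene epoxidase, a rate-limiting step of cholesterol synthesis (GRCm38 chr15:59315077-59331192). It was at 2026, 1902 and 1362 normalized counts on chow and at 74.8, 80.5 and 127 on HFCF. The fall of Sqle was 18.9-fold (log2 fold change -4.24, standard error 0.225, adjusted p = 5.28e-05). Idi1, the isopentenyl diphosphate isomerase, was at 4916, 4647 and 4062 normalized counts on chow and 693, 705 and 478 on HFCF, a 7.35-fold fall (adjusted p = 5.28e-05). Msmo1, a methylsterol oxidase late in the pathway, fell from 5609, 6053 and 4953 to 1102, 1109 and 894 (log2 fold change -2.42, adjusted p = 3.48e-05). For these 3 genes every HFCF liver lay far below every chow liver. Groups without overlap, in either direction, were found for 56.2% of all tested genes.

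Hmgcs1, an enzyme at the head of the pathway, fell from 6112, 5562 and 3566 to 2572, 2127 and 1594 normalized counts (log2 fold change -1.27, adjusted p = 0.00465). Its HFCF livers all lay below its chow livers, by less than for Sqle, Idi1 and Msmo1.

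Promoter sequences of 17 of the 25 sterol genes were found in the RefSeq table (GRCm38.p6, 250 bases before to 50 after each start). SREBP2 is known to act at sterol regulatory elements together with NF-Y, which binds CCAAT boxes, so both motifs were searched on both strands. CCAAT was present in the promoters of 16 of the 17 genes (94.1%), against 41.1% of the 27025 genes in the table and 42.8% of the tested genes with a promoter there. TCACNCCAC, the core of a sterol regulatory element, was present in 1 of the 17 genes, Hmgcs1 (5.88%), against 1.44% of all genes in the table. The motifs do not overlap by their letters, and a match is a description of letters in this window. Shown are the 250 bases before the start of Hmgcs1, the promoter with both motifs, and of Idi1 and Msmo1, called genes with the smallest p of this list that have an entry, each 5′ to 3′ on the strand of the gene. Capitals mark CCAAT or its reverse complement ATTGG, and in Hmgcs1 also TCACCCCAC.
Hmgcs1 (chr13:119690101-119690350, plus strand): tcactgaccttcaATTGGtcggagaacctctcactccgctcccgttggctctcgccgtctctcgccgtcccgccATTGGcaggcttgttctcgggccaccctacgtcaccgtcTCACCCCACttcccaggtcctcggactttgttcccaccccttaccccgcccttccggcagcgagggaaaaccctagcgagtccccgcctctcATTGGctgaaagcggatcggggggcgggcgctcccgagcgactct
Idi1 (chr13:8885356-8885605, plus strand): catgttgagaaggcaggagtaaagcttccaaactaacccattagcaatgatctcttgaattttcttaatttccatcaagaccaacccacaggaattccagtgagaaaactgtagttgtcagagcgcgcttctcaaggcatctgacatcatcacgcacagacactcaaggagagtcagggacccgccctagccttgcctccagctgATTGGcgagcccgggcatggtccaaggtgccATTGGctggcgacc
Msmo1 (chr8:64733579-64733828, minus strand): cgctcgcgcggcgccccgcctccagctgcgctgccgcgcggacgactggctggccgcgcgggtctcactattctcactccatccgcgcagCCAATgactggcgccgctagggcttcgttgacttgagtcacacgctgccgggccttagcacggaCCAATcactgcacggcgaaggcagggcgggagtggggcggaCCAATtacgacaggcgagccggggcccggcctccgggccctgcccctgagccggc
These 250 bases hold 3 CCAAT boxes in Hmgcs1, 2 in Idi1 and 3 in Msmo1. The log2 fold changes of these genes were -1.27, -2.88 and -2.42. Sqle, Fdps, Fdft1 and Stard4 are among the genes with no entry in the table.

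Bile acids are the main route by which cholesterol leaves the body, made in the liver by a classic pathway that starts with Cyp7a1 and an alternative one that runs through Cyp7b1. Of 20 tested genes of bile acid synthesis and conjugation, 4 were called lower and 0 higher (median log2 fold change -0.34). Cyp7b1, the oxysterol 7-alpha-hydroxylase, was at 13125, 17860 and 23317 normalized counts on chow and 2064, 3145 and 2533 on HFCF (log2 fold change -2.79, standard error 0.22, adjusted p = 0.000255). Cyp7b1 is also on the list of male-biased genes described below. Cyp8b1, the sterol 12-alpha-hydroxylase that sets the share of cholic acid, fell from 15273, 13459 and 10626 to 4714, 7806 and 4742 (log2 fold change -1.22, adjusted p = 0.00397). The other 2 calls were Cyp39a1, another oxysterol hydroxylase (log2 fold change -1.55, adjusted p = 0.00016), and Klb, the co-receptor of FGFR4 for the gut hormone that represses bile acid synthesis (-0.80, adjusted p = 0.00151). Cyp7a1, the rate-limiting enzyme of the classic pathway, was at 4398, 4093 and 2840 normalized counts on chow and 2140, 4912 and 2629 on HFCF. Its groups overlapped, and the log2 fold change of -0.30 had a standard error of 0.30 (adjusted p = 0.454). Without HFCF replicate 2, the highest of the 6 livers, Cyp7a1 had a log2 fold change of -0.65 and an adjusted p of 0.05.

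Transporters of bile acids and sterols moved both ways, with 5 of 20 tested called higher and 6 lower (median 0.01). Uptake carriers on the blood side of hepatocytes were among the genes that fell. Slc10a1, the sodium-dependent bile acid transporter NTCP, went from 24746, 23018 and 26567 to 10884, 12611 and 12562 normalized counts (log2 fold change -1.04, adjusted p = 0.000273). Slco1a1, an organic anion uptake carrier, fell from 7230, 9617 and 12029 to 441, 1391 and 1997 (log2 fold change -3.14, adjusted p = 0.00283), and the related Slco1a4 by 1.18 on the log2 scale (adjusted p = 0.000322). Slco1a1 too is on the list of male-biased genes. Npc1, which releases cholesterol from lysosomes, was lower by 0.87 on the log2 scale (adjusted p = 0.000531). Abcb11, the canalicular bile salt export pump, was at 11892, 10091 and 10106 normalized counts on chow and 6638, 7141 and 5358 on HFCF (log2 fold change -0.75, adjusted p = 0.00255). It was named after its value was seen. Other exporters were among the genes that rose. Abcc4, an efflux pump for conjugated bile acids on the blood side, rose from 54.5, 49.3 and 55.7 to 286, 178 and 140 normalized counts (log2 fold change 1.85, adjusted p = 0.00159). Abcg5 and Abcg8 together encode the canalicular sterol exporter. Abcg5 rose from 2520, 2874 and 3196 to 6588, 5047 and 5722 (log2 fold change 1.01, adjusted p = 0.00092). Abcg8 had a log2 fold change of 0.63 (adjusted p = 0.00923), which dropped under the 1.5-fold minimum without chow replicate 1 (0.54) or without HFCF replicate 1 (0.49) and lost the call with all 12 libraries in the fit (adjusted p = 0.0575).

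Of 24 tested genes of fatty acid synthesis, 12 were called higher, 1 lower and 11 not called (median 0.63). Scd1, the delta-9 desaturase that makes monounsaturated fatty acids (GRCm38 chr19:44394455-44407879), was at 79749, 81688 and 48165 normalized counts on chow and 701743, 699414 and 404027 on HFCF, an 8.58-fold rise (log2 fold change 3.10, standard error 0.283, adjusted p = 0.000387). Srebf1, which encodes SREBP1, rose from 5089, 5972 and 6219 to 22354, 17188 and 14776 (log2 fold change 1.64, adjusted p = 0.000391). Fasn, the fatty acid synthase, rose from 6707, 6095 and 6141 to 34783, 19353 and 12318 (log2 fold change 1.68, adjusted p = 0.00539), and the HFCF livers differed from each other far more than the chow livers did. Mogat1, a monoacylglycerol acyltransferase, had the largest rise of the list, from 20.9, 32.5 and 35.6 to 531, 450 and 410 (log2 fold change 3.97, adjusted p = 6.48e-05). The desaturase gene Fads2 rose by 1.20 (adjusted p = 6.73e-05). Elovl3, a fatty acid elongase that is also more abundant in male than in female liver, was the exception and fell from 9118, 7939 and 10250 to 2841, 2852 and 2134 (log2 fold change -1.81, adjusted p = 0.000215). Thrsp, a lipogenic protein that responds to thyroid hormone, was at 4159, 5552 and 13904 on chow and 20097, 16705 and 15498 on HFCF. Chow replicate 3 lay near the HFCF livers for Thrsp, and its call (log2 fold change 1.34, adjusted p = 0.0276) was lost in 5 of the 6 fits that left out 1 library, with adjusted p from 0.0562 to 0.0825.

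**Figure D2:**
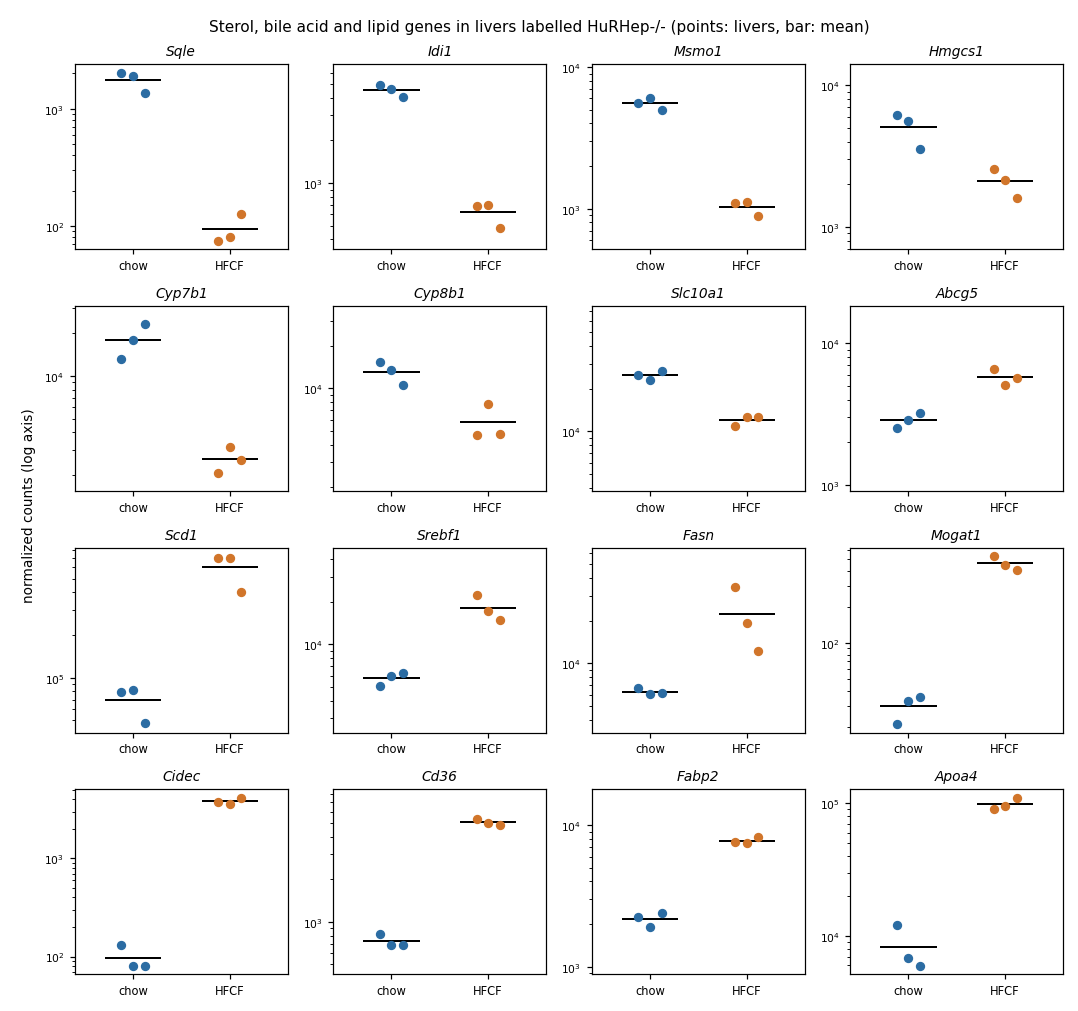
Normalized counts (log axis, scaled among 6 libraries) of sterol, bile acid and lipid genes in the 3 chow and 3 HFCF livers labelled HuRHep-/-. Points are livers and bars are means. Sqle falls from between 1362 and 2026 to between 74.8 and 127, and Cidec rises from between 80.1 and 131 to between 3559 and 4133.

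For fructose and glucose metabolism, 4 of 24 genes were called higher and 2 lower (median 0.03), shares near those of all tested genes. Khk, the ketohexokinase that takes up fructose into metabolism, rose from 13463, 14599 and 16762 to 24863, 24463 and 22050 normalized counts (log2 fold change 0.68, adjusted p = 0.00171). Pcx, pyruvate carboxylase, also rose by 0.68 (adjusted p = 0.00036). Slc2a8, a hexose transporter, fell by 0.67 on the log2 scale (adjusted p = 0.000516). Pck1, the gluconeogenic PEP carboxykinase, was at 77364, 111293 and 150118 on chow and 37786, 75528 and 100430 on HFCF, with overlapping groups and an adjusted p of 0.152.

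Of 31 genes of fatty acid oxidation and PPARalpha targets, 6 were called higher and 1 lower (median 0.10), a share near that of all tested genes. The calls included Vnn1, a pantetheinase often used as a readout of PPARalpha, which rose from 907, 853 and 731 to 2127, 1852 and 2493 normalized counts (log2 fold change 1.37, adjusted p = 0.000375). Acaa1b and Ehhadh, enzymes of peroxisomal beta-oxidation, rose by 1.46 (adjusted p = 0.00016) and 0.90 (adjusted p = 0.000271), and Acaa1b shares 45.7% of its sequence with Acaa1a. The gene called lower was Eci2, an enoyl-CoA isomerase (-0.63, adjusted p = 0.00632), which was named after its value was seen and fell short of 1.5-fold without chow replicate 3, HFCF replicate 1 or HFCF replicate 2 (-0.56, -0.55 and -0.58), and with upper-quartile scaling (-0.55).

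Among genes for lipid droplet proteins and lipid uptake, 10 of 24 were called higher and 1 lower (median 0.50). Cidec encodes a protein that fuses lipid droplets into larger ones (GRCm38 chr6:113424634-113435760). It rose 40.0-fold, from 131, 80.6 and 80.1 normalized counts on chow to 3740, 3559 and 4133 on HFCF (log2 fold change 5.32, standard error 0.185, adjusted p = 2.04e-05). The related Cidea, typical of brown fat, had raw counts of 2, 4 and 0 on chow and 2852, 1714 and 1306 on HFCF. Its chow counts summed to less than 10, so it is not among the called genes, and no fold is given. The fatty acid translocase Cd36 went from 824, 691 and 685 to 5337, 5011 and 4800 (log2 fold change 2.79, adjusted p = 1.2e-05). Fabp2, an intracellular fatty acid binding protein of the intestine, rose from 2240, 1901 and 2384 to 7618, 7441 and 8282 (log2 fold change 1.84, adjusted p = 4.84e-05). The droplet coat genes Plin2 and Plin4 rose by 0.74 (adjusted p = 0.00391) and 1.45 (adjusted p = 0.00474).

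Of 21 tested apolipoprotein and VLDL assembly genes, 3 were called higher and 1 lower (median -0.06), shares near those of all tested genes (14.7% and 5.72%). Apoa4, whose level is known to follow liver triglyceride, rose 12.5-fold, from 12072, 6866 and 5940 to 90602, 96239 and 109936 normalized counts (adjusted p = 0.000135). Apoc2, the activator of lipoprotein lipase, rose by 1.51 (adjusted p = 6.73e-05), but of the 31-base words in its transcripts 88.5% are found in the gene Gm44805 too, so its count is uncertain. Apom, a carrier of sphingosine-1-phosphate on HDL, fell from 10863, 10281 and 10946 to 3878, 4043 and 4381 (log2 fold change -1.38, adjusted p = 3.87e-05). Mttp, which loads lipid onto apolipoprotein B, changed by -0.33 (adjusted p = 0.00682), under the fold minimum.

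The largest falls of the comparison were in genes that are more abundant in male than in female mouse liver. Of 25 such genes in both tables, 23 passed the filter, and 23 were called lower and 0 higher (median log2 fold change -2.31, lowest -8.67, highest -0.95). Many of them depend on the pulses of growth hormone that males secrete. The major urinary proteins (Mup) are made by hepatocytes and shed in urine, where they bind pheromones. Mup11 was at 62891, 108244 and 135819 normalized counts on chow and 169, 421 and 191 on HFCF (log2 fold change -8.67, standard error 0.384, adjusted p = 3.48e-05). Mup7 went from 177926, 317353 and 400861 to 1036, 5583 and 995 (log2 fold change -7.30, adjusted p = 0.00036). The Mup genes on chromosome 4 are near copies of each other, and 92.9% of Mup11 and 92.3% of Mup7 occur in transcripts of other genes, so counts of single members are uncertain. The male-biased list holds several Mup genes, and also Cyp4a12a with Cyp4a12b, so its 23 calls and its median are not over 23 separate measurements. Summed over 22 Mup genes, reads fell from 4.07, 5.08 and 5.33% of each library's counts on chow to 1.16, 1.62 and 1.57% on HFCF, a log2 fold change of -1.99 on normalized counts. Mup20, which encodes the male pheromone darcin, held a large part of that total and went from 601047, 551793 and 517103 to 234761, 314874 and 320176 (log2 fold change -0.95, adjusted p = 0.00517).

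Hsd3b5, a steroid dehydrogenase of adult male liver, fell from 5248, 9752 and 11670 to 65.0, 196 and 296 normalized counts (log2 fold change -5.75, adjusted p = 0.00042). Serpina1e, a male-biased member of the alpha-1-antitrypsin family, fell from 351186, 479121 and 574731 to 9614, 19133 and 12310 (log2 fold change -5.13, adjusted p = 5.28e-05). It shares 55.3% of its sequence with other genes, mainly its relatives. The 5 genes Serpina1a to Serpina1e together took 3.13, 3.52 and 3.87% of counts on chow and 1.59, 1.71 and 1.61% on HFCF. Cyp4a12a, an arachidonic acid hydroxylase, was lower by 1.81 (adjusted p = 0.0247), a call lost without chow replicate 1 or chow replicate 3 (adjusted p = 0.0646 in both), and 62.2% of its sequence is shared, with Cyp4a12b. In each of these genes all 3 HFCF livers lay below all 3 chow livers. The groups did not overlap, in either direction, in 56.2% of all tested genes.

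Female-biased genes did not move as a mirror image. Of 15 tested, 6 were called higher and 1 lower (median 0.89). The summed level of this list was 7006 to 7677 normalized counts on chow and 16208 to 20247 on HFCF. Cyp2b9 rose from 9.42, 4.48 and 36.7 to 1487, 821 and 1057 normalized counts (log2 fold change 6.47, adjusted p = 0.000535), and Cyp2a4, a steroid 15-alpha-hydroxylase, from 61.8, 36.9 and 75.7 to 5544, 2894 and 3146 (log2 fold change 6.04, adjusted p = 5.28e-05). Of the Cyp2a4 sequence, 58.1% occurs in other genes, mainly Cyp2a5, and the sum of Cyp2a4, Cyp2a5 and Cyp2a22 had a log2 fold change of only 0.38. Cyp2b9, with raw chow counts of 9, 4 and 33, is 1 of 2 among the 6 female-biased genes called higher that passed the filter with the help of HFCF livers. The gene called lower was Cyp3a16 (-1.31, adjusted p = 0.0088), named after its value was seen. H19 is an imprinted long non-coding RNA of fetal liver (GRCm38 chr7:142575529-142578143). It was among the 10 largest rises, from 42.9, 26.9 and 8.90 to 895, 987 and 2181 (log2 fold change 5.79, standard error 0.563, adjusted p = 0.000491). Its raw chow counts were 41, 24 and 8, so it too needed its HFCF livers to pass the filter.

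Drug-metabolizing enzymes of phase I were lower more often than higher, with 19 of 57 tested called lower and 9 higher (median -0.40). Cyp2b10, the classic target of the receptor CAR, fell from 519, 312 and 866 to 53.4, 65.7 and 81.0 normalized counts (log2 fold change -2.97, adjusted p = 0.00092), opposite to its paralog Cyp2b9. Cyp3a11, the main target of PXR, fell from 142911, 103598 and 113949 to 54696, 46943 and 48161 (log2 fold change -1.26, adjusted p = 0.000714). Cyp1a2, a pericentral enzyme, fell by 1.90 (adjusted p = 0.000205) and the carboxylesterase Ces2a by 1.44 (adjusted p = 4.27e-05). Cyp2e1, which oxidizes ethanol and acetaminophen, was at 230372, 266826 and 299550 on chow and 153072, 156538 and 208983 on HFCF. Its log2 fold change of -0.63 (adjusted p = 0.0213) lost the call in 4 of the 6 fits that left out 1 library, with values from -0.53 to -0.61 in those fits, and with upper-quartile scaling (-0.54). Cyp2a22 rose from 71.2, 80.6 and 62.3 to 1609, 1626 and 1575, with HFCF livers close to each other and 34.9% of its sequence shared with Cyp2a12 (log2 fold change 4.49, standard error 0.108, adjusted p = 3.62e-06).

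Glutathione transferases and glucuronosyltransferases, which conjugate drugs for export, were called lower in 8 of 36 cases, against 5.72% of all tested genes. They were called higher in 6, a share near the 14.7% of all tested genes (median -0.08). Gsta1 rose from 420, 124 and 119 to 3331, 2268 and 974 normalized counts (log2 fold change 3.40, adjusted p = 0.00354). It shares 92.2% of its sequence with Gm3776, Gsta2 and Gm10639, and the sum of Gsta1, Gsta2 and Gm10639 had a log2 fold change of 1.78. Gsta2 alone was at 941, 588 and 700 on chow and 1602, 1567 and 688 on HFCF (adjusted p = 0.113). Without HFCF replicate 3 its log2 fold change was 1.12 with an adjusted p of 0.00685. Gstp1, the pi-class enzyme, fell from 101887, 117879 and 159024 to 37417, 35341 and 28681 (log2 fold change -1.88, adjusted p = 0.000424), and it shares 67.5% of its sequence with other genes, mainly Gstp2. Gstp1 is also on the list of male-biased genes described above.

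Urea cycle and amino acid catabolism genes were called lower in 6 of 27 cases and higher in 0 (median -0.38). Cps1, the first enzyme of the urea cycle, fell from 83150, 77085 and 87106 to 47767, 49936 and 43519 normalized counts (log2 fold change -0.81, adjusted p = 0.000847). Agxt, which detoxifies glyoxylate, fell from 12147, 12685 and 12945 to 6141, 6182 and 5981 (log2 fold change -1.04, adjusted p = 5.06e-05). In methionine and one-carbon metabolism 3 of 16 were lower and 0 higher (median -0.23), namely Gnmt, Cth and Nnmt, by 0.69, 0.99 and 1.09 on the log2 scale. In the unfolded protein and integrated stress response 4 of 26 were lower and 1 higher (median -0.32), against 5.72% and 14.7% of all tested genes. With upper-quartile scaling 3 members of this list were called. Asns, asparagine synthetase and a target of ATF4, fell from 130, 135 and 286 to 25.8, 22.2 and 34.3 (log2 fold change -2.65, adjusted p = 0.00117). Atf3, a stress-induced transcription factor, rose from 25.1, 54.9 and 59.0 to 351, 283 and 255 (log2 fold change 2.74, adjusted p = 0.000933). The chaperone gene Hspa5 was not called (log2 fold change 0.21, adjusted p = 0.285).

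Acute phase genes, which hepatocytes switch on in inflammation, were called lower in 15 of 35 cases and higher in 3 (median -0.56). The chow livers differed widely from each other here. Saa1, serum amyloid A, was at 18110, 41983 and 6672 normalized counts on chow and 4314, 4499 and 6937 on HFCF, so that chow replicate 3 lay below HFCF replicate 3. Its call (log2 fold change -1.75, adjusted p = 0.0431) was lost in 5 of the 6 fits that left out 1 library, with adjusted p from 0.0634 to 0.117, and with upper-quartile scaling (adjusted p = 0.0551), and Saa1 shares 47.3% of its sequence with other genes, mainly Saa2. Saa2 was at 5701, 16215 and 1261 on chow and 2513, 2757 and 3679 on HFCF (log2 fold change -0.73, adjusted p = 0.479). Without chow replicate 2, the highest liver, Saa2 had a log2 fold change of 0.14, and without chow replicate 3, the lowest, -1.70 (adjusted p = 0.0173). Lcn2 was at 900, 1738 and 364 on chow and 1922, 1749 and 2832 on HFCF (log2 fold change 1.35, adjusted p = 0.0609). It would be called without chow replicate 2 (1.90, adjusted p = 0.014) or with voom weights (adjusted p = 0.0481). More uniform were Fgb, the fibrinogen beta chain, which fell from 201771, 172617 and 132428 to 88941, 83827 and 91127 (log2 fold change -0.92, adjusted p = 0.00373), and Itih3, which fell by 1.08 (adjusted p = 0.000966). Hamp2, a relative of the iron hormone hepcidin, rose from 218, 159 and 225 to 1684, 1286 and 1721 (log2 fold change 2.96, standard error 0.163, adjusted p = 6.48e-05), and shares 31.4% of its sequence with Hamp. Orm3 rose by 3.18 (adjusted p = 0.000157).

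Of 30 tested cell cycle genes, 19 were called higher, 0 lower and 11 not called (median 1.25). In bulk tissue, fewer or more cells of a type and less or more RNA per cell cannot be told apart, here and in the lists that follow. Of the 19, 3 passed the filter with the help of HFCF livers. Ccnd1, cyclin D1, which drives entry into the cycle, rose from 710, 820 and 799 to 3707, 2802 and 2500 normalized counts (log2 fold change 1.93, adjusted p = 0.000186). The largest rise was in Cdkn1a, which encodes the cycle inhibitor p21 and is a target of p53. It went from 79.6, 41.4 and 33.4 to 845, 952 and 1344 (log2 fold change 4.40, standard error 0.318, adjusted p = 0.000186). Mcm5, a subunit of the replicative helicase, rose from 78.5, 84.0 and 69.0 to 606, 297 and 345 (log2 fold change 2.36, adjusted p = 0.000715). Mki67, the proliferation marker, was at 53.4, 80.6 and 39.0 on chow and 125, 121 and 98.2 on HFCF (log2 fold change 1.04, adjusted p = 0.0175). That call was lost without HFCF replicate 1 (adjusted p = 0.0581) or HFCF replicate 2 (adjusted p = 0.0605) and with all 12 libraries in the fit (adjusted p = 0.107).

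Collagens and matrix remodelling genes were called higher in 29 of 33 cases and lower in 0 (median 1.48). The summed level of the list, 74634 to 85208 normalized counts on chow and 82748 to 93919 on HFCF, overlapped between diets. Col1a1, the main fibrillar collagen of scars, rose from 378, 322 and 111 to 1729, 1282 and 2090 normalized counts (log2 fold change 2.80, standard error 0.43, adjusted p = 0.00242). Col3a1 rose from 1008, 914 and 397 to 3174, 2943 and 4040 (log2 fold change 2.23, adjusted p = 0.00202). In both, chow replicate 3 was the lowest liver. Timp1, an inhibitor of matrix metalloproteinases, rose from 4.19, 7.84 and 7.79 to 78.3, 70.3 and 190 (log2 fold change 3.88, adjusted p = 0.000851). Its raw counts were 4, 7 and 7 on chow, so it passed the filter through its HFCF livers, and of the 29 matrix genes called higher 3 needed HFCF livers to pass, Timp1, Lox and Mmp12. The macrophage elastase Mmp12 rose from a mean of 12.6 ± 4.48 (SD, n = 3) on chow to 427, 294 and 920 (log2 fold change 5.26, adjusted p = 0.000271), with raw chow counts of 17, 9 and 9. The basement membrane collagens Col4a1 and Col4a2 rose by 1.21 and 1.04 with little spread (standard error 0.0787 for each).

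Stellate cell markers were higher on HFCF. The 11 quiescent stellate markers in the tables were tested, and 11 were called higher (median 0.97). Of 12 activated stellate and myofibroblast markers, 10 passed the filter and 10 were called higher (median 1.95), of which Lox and Timp1 passed with the help of their HFCF livers. That count and median are over the markers that passed and are in part set by the filter. The summed level of the quiescent markers ran from 7549 to 10500 normalized counts on chow and from 15783 to 17027 on HFCF, and that of the activated markers from 1473 to 2819 and from 7461 to 10410. Lrat, which stores vitamin A, rose from 206, 373 and 292 to 602, 537 and 525 (log2 fold change 0.97, adjusted p = 0.007). Postn, a matrix protein of myofibroblasts, rose from 145, 137 and 116 to 360, 394 and 534 (log2 fold change 1.68, adjusted p = 0.000522). Acta2, smooth muscle actin, was at 81.7, 66.1 and 145 on chow and 240, 196 and 156 on HFCF (log2 fold change 1.07, adjusted p = 0.0224). Chow replicate 3 lay close to the lowest HFCF liver, and the Acta2 call was lost in 4 of the 6 fits without 1 library (adjusted p from 0.0564 to 0.0739).

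Cholangiocyte and ductular markers were called higher in 12 of 13 tested (median 1.31), of 15 in the tables, and 1 of the 12 passed the filter with the help of HFCF livers. Their summed level was 14230 to 20073 normalized counts on chow and 36538 to 39476 on HFCF, and most of it came from Krt8, Krt18 and Spp1, which other liver cells express too. The keratin Krt23, known from stressed hepatocytes and ducts, rose from 46.1, 48.1 and 79.0 to 534, 472 and 714 (log2 fold change 3.32, standard error 0.24, adjusted p = 0.000186). Krt19, the keratin that defines bile ducts, rose from 63.9, 45.9 and 25.6 to 149, 128 and 146 (log2 fold change 1.72, adjusted p = 0.0045). Epcam, another ductal marker, had a log2 fold change of 1.18 (adjusted p = 0.0233), and its call was lost without chow replicate 3, HFCF replicate 1 or HFCF replicate 3 (adjusted p = 0.051, 0.0578 and 0.0684).

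**Figure D3:**
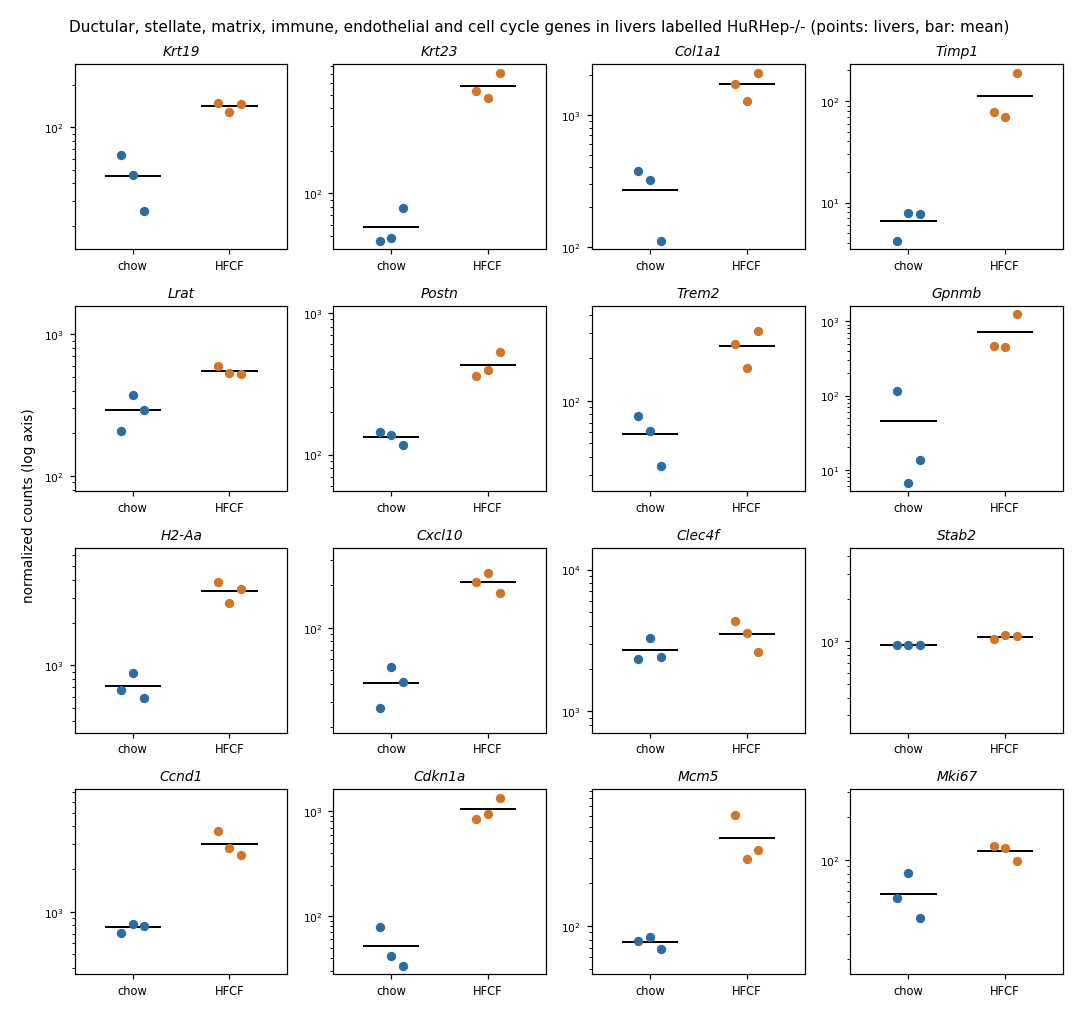
Normalized counts (log axis, scaled among 6 libraries) of ductular, matrix, stellate, macrophage, immune, endothelial and cell cycle genes in the 3 chow and 3 HFCF livers labelled HuRHep-/-. Points are livers and bars are means. Clec4f of resident Kupffer cells and Stab2 of sinusoidal endothelium stay near their chow levels, and H2-Aa rises from between 585 and 886 to between 2726 and 3843.

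Markers of lipid-associated and recruited macrophages rose in 18 of 20 cases and fell in 1 (median 1.89). Gpnmb, a glycoprotein of foamy macrophages, was at 114, 6.72 and 13.4 normalized counts on chow and 464, 450 and 1236 on HFCF (log2 fold change 4.81, standard error 0.94, adjusted p = 0.00606). Chow replicate 1 stood above the other chow livers. Of the 18 macrophage markers called higher, 4 passed the filter with the help of HFCF livers, Gpnmb, Itgax, Mmp12 and Cx3cr1. Trem2, the lipid receptor of these cells, rose from 77.5, 61.6 and 34.5 to 253, 169 and 312 (log2 fold change 2.10, adjusted p = 0.0027). Itgax, which encodes CD11c, rose by 3.48 (adjusted p = 0.00187). The gene that fell was Fabp5, a fatty acid binding protein, by 1.82 on the log2 scale (adjusted p = 0.000809), which was named after its value was seen. The markers of resident Kupffer cells were split, with 6 of 13 higher and 2 lower (median 0.69). Clec4f, which defines them, was at 2327, 3304 and 2432 on chow and 4318, 3560 and 2638 on HFCF (log2 fold change 0.37, adjusted p = 0.159), and Timd4 at 146, 199 and 135 on chow and 139, 136 and 62.9 on HFCF (-0.57, adjusted p = 0.182). Both overlapped between diets. The complement genes C1qb and C1qc, shared by macrophages of either kind, rose by 1.06 and 0.99.

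Chemokines and their receptors were called higher in 13 of 25 cases and lower in 1 (median 1.96), the B cell attractant Cxcl13 (-2.62, adjusted p = 0.00329), which was named after its value was seen. The summed level of the list was 12720 to 15914 normalized counts on chow and 12495 to 13479 on HFCF, so the sum overlapped between diets. Ccl2, which recruits monocytes, rose from 15.7, 5.60 and 6.68 to 104, 99.0 and 74.4 normalized counts (log2 fold change 3.36, adjusted p = 0.000938). Raw chow counts of Ccl2 were 15, 5 and 6, and it is 1 of 3 higher genes of the list that passed the filter with the help of HFCF livers, while Cxcl13 passed with the help of chow livers. The Ccl2 receptor Ccr2 rose from 38.7, 51.5 and 20.0 to 140, 121 and 198 (log2 fold change 2.11, adjusted p = 0.00338). Cxcl10, an interferon-induced attractant of T cells, rose from 27.2, 52.6 and 41.2 to 211, 244 and 176 (log2 fold change 2.40, adjusted p = 0.000682). Antigen presentation genes were called higher in 11 of 19 cases and lower in 0 (median 0.94), and the class II genes led. Of the 11, Ciita passed the filter with the help of HFCF livers. H2-Aa rose from 670, 886 and 585 to 3843, 2726 and 3446 (log2 fold change 2.23, adjusted p = 0.000249), and the invariant chain gene Cd74 from 1804, 2516 and 1455 to 9415, 6389 and 7972 (log2 fold change 2.06, adjusted p = 0.000559). The class I gene H2-K1 was not called (log2 fold change 0.19, adjusted p = 0.0727). Interferon-stimulated genes were called higher in 16 of 23 cases and lower in 0 (median 1.05), among them Isg15, which rose from 227, 184 and 141 to 430, 495 and 397 (log2 fold change 1.28, adjusted p = 0.00166).

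Lymphocyte genes had low counts. Of 12 tested T and NK cell markers, out of 17 in the tables, 5 were called higher and 0 lower (median 0.97), with summed levels of 141 to 254 normalized counts on chow and 301 to 438 on HFCF. Cd3e, a subunit of the T cell receptor complex, rose from 8.38, 8.96 and 8.90 to 23.1, 29.6 and 21.9 (log2 fold change 1.44, adjusted p = 0.00714), and Cd8a from 5.24, 5.60 and 6.68 to 14.2, 31.5 and 24.8 (log2 fold change 1.84, adjusted p = 0.00875). Raw counts of Cd3e and Cd8a were below 10 in every chow liver, so these genes passed the filter through their HFCF livers. They are among 3 of the 5 called markers that did so. The count of called T and NK markers was 2 when 10 counts were required in every library, 2 without HFCF replicate 2 and 3 without chow replicate 1 or HFCF replicate 3. Of 9 B and plasma cell markers 0 were called (median 0.00). The dendritic cell markers had 4 of 6 called higher, of which 3 passed the filter with the help of HFCF livers. The count dropped to 1 or 2 in 5 of the 6 fits without 1 library and to 1 when 10 counts were required in every library. Sinusoidal endothelial markers were called higher in 3 of 14 cases, against 14.7% of all tested genes, and lower in 0 (median 0.21). Stab2, a scavenger receptor that defines these cells, was at 938, 941 and 946 on chow and 1047, 1105 and 1092 on HFCF (log2 fold change 0.20, adjusted p = 0.0255, under the fold minimum).

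Other tissues that a liver sample can carry were checked beside these lists. The summed level of 6 mesothelial markers was 39, 202 and 338 normalized counts on chow from lowest to highest and 537 to 910 on HFCF, and 2 of 6 were called higher, of which Msln passed the filter with the help of HFCF livers. Msln was at 26.2, 68.3 and 1.11 on chow, with chow replicate 3 near 0, and at 145, 262 and 222 on HFCF. The Msln call was lost without any 1 of the HFCF livers (adjusted p from 0.0672 to 0.1), and the count of called mesothelial markers was 1 in those fits and 4 without chow replicate 2 or 3. Mesothelium covers the liver surface, and its part in the matrix results was not tested. Of the adipocyte markers, Adipoq had normalized counts of 0, 0 and 0 on chow and 0, 0.925 and 0 on HFCF, and Cfd and Fabp4 were called higher, 2 of the 3 adipocyte markers tested out of 5 in the tables. The summed level of the list was 422 to 499 on chow and 1566 to 2342 on HFCF. Fabp4, a fatty acid binding protein of fat cells and macrophages, had a log2 fold change of 1.45 (adjusted p = 0.000966). The part of fat tissue in these results was not tested. Cfd, adipsin, is made by fat cells and macrophages, and its rise was the largest called for genes with a mean of at least 100 normalized counts. It went from 4.19, 7.84 and 2.23 to 963, 908 and 1561 (log2 fold change 7.86, standard error 0.403, adjusted p = 5.06e-05). Cfd too passed the filter through its HFCF livers, with raw chow counts of 4, 7 and 2. Without chow replicate 1 or chow replicate 2 its chow counts summed to less than 10, so the count minimum was not met, and the log2 fold change was 7.86 or 8.27. Markers of hepatocytes were called lower in 5 of 14 cases and higher in 0 (median -0.49), of pericentral hepatocytes lower in 4 and higher in 1 of 11, and of periportal hepatocytes lower in 4 and higher in 1 of 11. The pericentral count dropped to 2 without chow replicate 2 or HFCF replicate 1.

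Of the 10 largest called rises among genes with a mean of at least 100 normalized counts, those not yet described were Ly6d, Ephb2 and Gm10800. Ly6d, a membrane protein better known from lymphocyte precursors, rose from between 21.1 and 40.8 on chow to 1558, 1299 and 1268 normalized counts (log2 fold change 5.54, adjusted p = 3.13e-05). Ephb2, a receptor tyrosine kinase for ephrins, rose from 11.5, 7.84 and 6.68 to 263, 391 and 337 (log2 fold change 5.18, adjusted p = 4.84e-05). Its raw chow counts were 11, 7 and 6, so Ephb2 passed the filter with the help of its HFCF livers, and so did Gm10800. Gm10800 is a predicted gene that shares 42.0% of its sequence with others, and it was at 2.09, 17.9 and 3.34 on chow and 76.5, 150 and 583 on HFCF. Its call was lost with voom weights (adjusted p = 0.0544) and, since its chow counts then summed to less than 10, without chow replicate 2.

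The same diet comparison in livers labelled WT, which shares no library with the one above but does share the 2 tables, called 950 of 13699 tested genes (6.93%), 588 higher (4.29%) and 362 lower (2.64%). Its spread was larger, with a median moderated SD on the log2 scale of 0.167 against 0.149, each over the genes tested in its own fit. The HFCF livers labelled WT differed among themselves. Scaled among all 12 libraries, Cidec was at 5994, 1149 and 5599 normalized counts in the 3 HFCF livers labelled WT and at 115, 175 and 178 in the chow livers labelled WT, so replicate 2 was the lowest HFCF liver. Mup11 was at 35768, 39163 and 3286 in the HFCF livers labelled WT and 45962, 98922 and 28145 in the chow livers labelled WT, so here replicate 3 was the lowest. The count of called genes in livers labelled WT was 1423 without HFCF replicate 2, 410 without HFCF replicate 1 or 3, 222 without chow replicate 1 and 241 without chow replicate 3.

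Of the genes called in livers labelled HuRHep-/-, 614 (21.2%) were also called in those labelled WT, and these made up 64.6% of the WT calls. The sign was the same in 612 of the 614. Of the 2709 genes called in livers labelled HuRHep-/- and tested in those labelled WT, 2534 (93.5%) had the same sign, and 2378 had the larger size of change in livers labelled HuRHep-/-. These had been chosen for a change in the livers labelled HuRHep-/-. Of the 946 genes called in livers labelled WT and tested in both, 568 had the larger size of change in livers labelled WT. Across the 13566 genes tested in both, the 2 log2 fold changes had a Pearson correlation of 0.71, given as a description, since genes are not independent and a table effect would enter both.

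**Figure D4:**
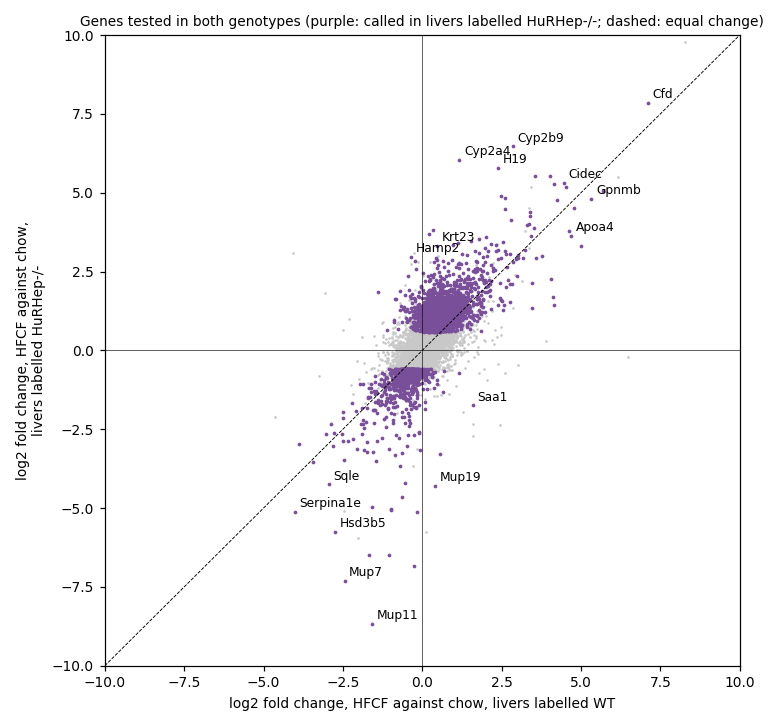
Log2 fold change, HFCF against chow, in livers labelled HuRHep-/- (vertical) and in livers labelled WT (horizontal) for 13566 genes tested in both. Purple genes were called in livers labelled HuRHep-/- and the dashed line marks equal change. Cfd, Cidec and Apoa4 lie near the line, and Mup11 and Mup7 lie below it with -8.67 and -7.30 against -1.59 and -2.45.

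The difference between the 2 diet effects was tested as an interaction over 12 libraries. At an adjusted p of at most 0.05, limma called 0 of 14535 genes (0%), with a smallest adjusted p of 0.0715. At an unadjusted p under 0.05 there were 2123 genes (14.6%), and limma with voom weights called 1 gene. Without HFCF WT replicate 3, the fit called 37 genes. By this threshold a different response to the diet between the 2 labelled genotypes was not detected for any gene, and the values that follow stand side by side. Mup11 had a log2 fold change of -8.67 in livers labelled HuRHep-/- and -1.59 in those labelled WT (interaction adjusted p = 0.0715). For Mup19 the values were -4.29 and 0.40 (adjusted p = 0.0715), and for Ehhadh 0.90 and 0.29 (adjusted p = 0.0715). Hectd2os, an antisense long non-coding RNA, had 0.69 and -0.76, and Dio1, the deiodinase that activates thyroid hormone, -0.56 and 0.64, each with an interaction adjusted p of 0.0715. Dio1 was not called in livers labelled HuRHep-/-, but would be without chow replicate 1 (-0.66, adjusted p = 0.0119), HFCF replicate 1 (-0.60) or HFCF replicate 2 (-0.62). Slc17a4, an organic anion transporter, had 1.39 and 0.27 (adjusted p = 0.0715).

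Some of these differences came with unequal starting points on chow. Scaled among all 12 libraries, Hectd2os was at 806, 934 and 1061 normalized counts in the chow livers labelled HuRHep-/- and 3321, 2285 and 2849 in the chow livers labelled WT. On HFCF it was at 1573, 1524 and 1402 in the livers labelled HuRHep-/- and 1592, 1936 and 1417 in those labelled WT, so that the labelled genotypes overlapped on HFCF and not on chow. Krt23 had chow values of 43.6, 45.5 and 74.7 in the livers labelled HuRHep-/- and 262, 212 and 84.1 in those labelled WT, and HFCF values of 505, 446 and 675 and of 166, 191 and 376 (interaction adjusted p = 0.109). Saa1 was at 17127, 39704 and 6310 on chow in the livers labelled HuRHep-/- and at 727, 1889 and 762 in those labelled WT. Its HFCF values were 4080, 4255 and 6560 in the livers labelled HuRHep-/- and 2200, 2505 and 5063 in those labelled WT (log2 fold changes -1.75 and 1.59, interaction adjusted p = 0.14). Hamp2 was lowest in the chow livers labelled HuRHep-/-, at 206, 150 and 213, against 499, 503 and 1677 in the chow livers labelled WT (log2 fold changes 2.96 and -0.35, interaction adjusted p = 0.0918).

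**Figure D5:**
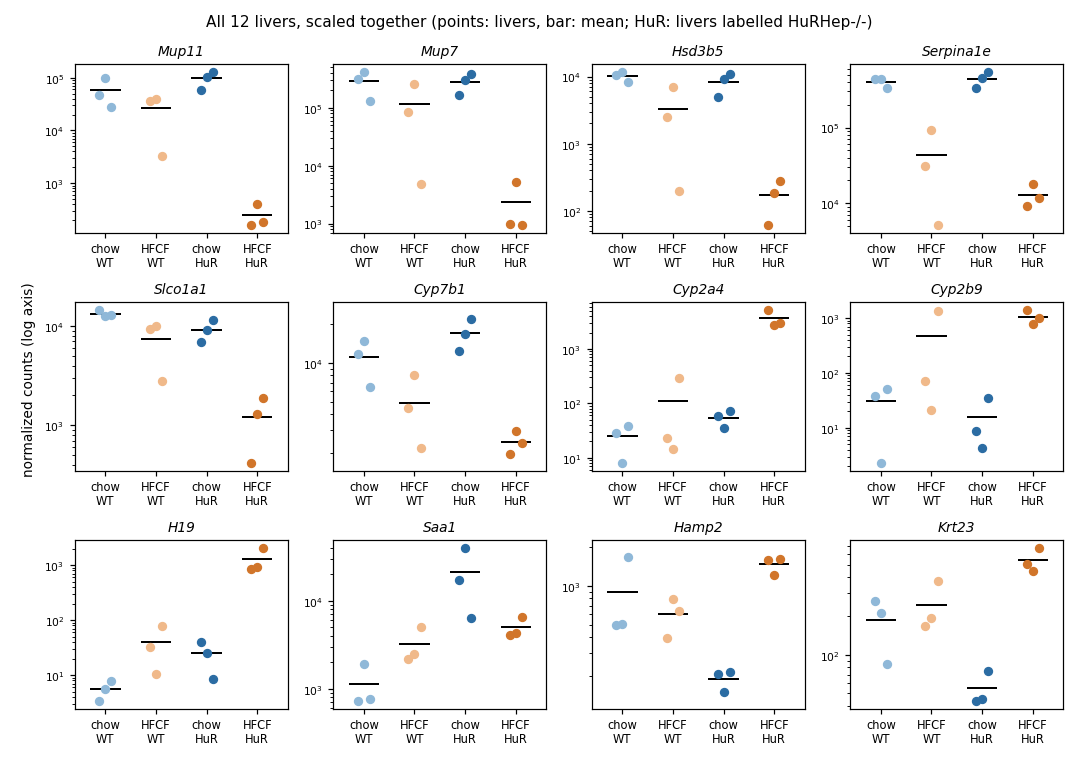
Normalized counts (log axis, scaled among 12 libraries) of 12 genes in the livers labelled WT and HuRHep-/- on chow and HFCF, with points for livers and bars for means. Mup11 lies between 160 and 398 in the HFCF livers labelled HuRHep-/-, and HFCF WT replicate 3 (3286) is nearest to them. Krt23 and Hamp2 start lower on chow in the livers labelled HuRHep-/- than in those labelled WT.

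For the lists, the livers labelled WT had 3 of 24 male-biased genes called lower (median -0.98), 2 of 31 matrix genes called higher (median 0.72), 5 of 26 cell cycle genes (median 0.36), 1 of 18 antigen presentation genes (median 0.55), 0 of 8 myofibroblast markers (median 0.71) and 1 of 12 ductular markers (median 0.36). Fatty acid synthesis genes had 11 of 24 called higher and 1 lower in livers labelled WT (median 0.55), against 12 and 1 in livers labelled HuRHep-/-. In livers labelled WT, 10 of 25 sterol genes were called lower and 1 higher (median -0.61, against -1.03), 7 of 20 lipid-associated macrophage markers were called higher (median 1.40, against 1.89), and 8 of 27 urea cycle and amino acid genes were called lower (median -0.33, against 6 called lower and a median of -0.38). These counts rest on separate fits with different spread, and the difference between labelled genotypes was tested for single genes alone. The class II gene H2-Aa had log2 fold changes of 2.23 and 0.57 in livers labelled HuRHep-/- and WT (interaction adjusted p = 0.173), Cxcl10 2.40 and 0.26 (0.109), Cyp8b1 -1.22 and 0.03 (0.117), Tagln, an actin-binding protein of myofibroblasts, 0.91 and 0.08 (0.126), and Krt19 1.72 and -0.14 (0.156).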

How the data were processed

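RNA from 12 mouse livers was sequenced as stranded libraries, 3 per diet and genotype. The authors mapped reads with CLC Genomics Workbench to GRCm38.p6, counted them per gene on the reverse strand and deposited raw counts in 2 tables, chow and HFCF, whose numbers are text with commas between groups of digits. The deposited counts were whole numbers once the commas were stripped, and they were analysed with limma on log2 values, with no count model run. Tables were read (Python 3.11.15, pandas 2.3.3, numpy 2.4.6) with genes joined by identifier. Of 20775 genes with chow values 682 had no HFCF values, and of 22709 genes with HFCF values 2616 had no chow values, and these were left out. Some gene names had been turned into dates by a spreadsheet (23 with chow and 27 with HFCF values), so identifiers were used. No 2 libraries were identical.

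Genes with at least 10 counts scaled to the median library in 3 libraries and 15 counts in total were kept. A gene found on 1 diet alone can pass this filter. TMM factors, log2 CPM with a pseudocount of 0.5, and limma 3.58.1 (R 4.3.3) with a mean-variance trend gave moderated two-sided tests, with Benjamini-Hochberg adjustment over all tested genes. The 6 livers labelled HuRHep-/- and the 6 labelled WT were fitted separately, and the interaction in 1 fit of 12. Log2 fold changes are on the scale of log2 values with that pseudocount, which understates those of low genes. The steps were tested on simulated data. Libraries hold 30071731 to 35949203 counts each, so depth limits the precision mainly of genes with low counts.

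The comparison, the gene lists and the tests were chosen with earlier results of these data known. Genes named are Elavl1, the anchors of each list, the 10 largest called rises and falls without overlap and with a mean of at least 100 normalized counts, up to 3 called genes with the smallest p in each list, the 10 lowest interaction p and the 3 most abundant genes of 1 table alone, and a few others said to be chosen after their values were seen. Shared sequence is the percent of a gene's 31-base words found in transcripts of other genes. Promoters are from RefSeq (GRCm38.p6). The alternatives tried were other scaling factors, filters, a pseudocount of 2, voom weights, a replicate term, all 12 libraries in the fit, other thresholds and leaving out each library in turn. Some genes of these lists are counted but not reported by name here.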

Additional observations from a re-analysis of the deposited data

Results flagged for a closer look

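The HFCF table lists 2616 genes that the chow table does not, so they lie outside the comparison. In 3 protein-coding genes of that kind, all HFCF livers labelled HuRHep-/- were above a floor of 3 counts. Krt20, a keratin of intestinal epithelium, had 51, 18 and 21 counts in these livers (mean 30) and 0, 0 and 3 in the HFCF livers labelled WT. Scnn1g, a subunit of the epithelial sodium channel, had 35, 24 and 9 counts (mean 22.7) and 40, 1 and 9 in those labelled WT. Tbx10, a T-box transcription factor, had 9, 10 and 9 counts (mean 9.33) and 1, 1 and 0 in those labelled WT. The chow table has no entry for them, so the diets were not compared. Neither table lists a gene with 0 counts in all of its libraries. A missing gene may therefore have had 0 counts there, which was not tested.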

How the results depend on the processing

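In livers labelled HuRHep-/-, the count of 2896 called genes was 558 (407 higher, 151 lower) when tested against a 1.5-fold change. It was 5978 (2812 higher, 3166 lower) with no minimum fold, and 2299 to 2679 without 1 library. In livers labelled WT the 950 calls became 33 (26 higher, 7 lower) and 2043 (947 higher, 1096 lower), and 222 to 1423 without 1 library (128 to 956 higher). Calls lower in livers labelled WT were 88 without chow replicate 3, 94 without chow replicate 1, 191 without HFCF replicate 3, 204 without HFCF replicate 1 and 467 without HFCF replicate 2. The interaction gave 1 call with no filter on low counts, 1 with voom weights, 40 at an adjusted p of at most 0.1, and 0 to 37 without 1 library (2 without chow WT replicate 2, 1 without chow HuRHep-/- replicate 3 and 37 without HFCF WT replicate 3). The 614 genes called in both genotypes became 1510 with no minimum fold, 27 against a 1.5-fold change, and 156 to 1015 without 1 library. The cause of these shifts was not tested, apart from what each threshold removes by construction.

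Of 116 called genes among the 130 tested genes named, 102 had a value in all 14 alternative fits (other scaling, filters, pseudocount, weights, the replicate term, all 12 libraries, 1 library left out), and 93 of these were called in each. Of the 116, 0 changed sign. The test against a 1.5-fold change is not among these 14 fits, and its result for single named genes is not given here. Saa2, which was not called, ranged from -1.70 to 0.14 without 1 library. Livers with the same replicate number did not deviate together (correlations 0.122, -0.00423 and -0.0265), so the samples share a number and were not treated as paired. The replicate block gave 2810 calls in livers labelled HuRHep-/- and 734 in those labelled WT, and with it Pck1 was called (-0.72, adjusted p = 0.00921).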

Other observations

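Lists with few calls in livers labelled HuRHep-/- add the following values. Of 19 circadian clock genes 1 was called lower, Bhlhe41, a share near the 5.72% of all tested genes, and 0 higher (median log2 fold change -0.24). The labels give no time of day of collection, and its part in these results was not tested. The count was 0 without chow replicate 2 or HFCF replicate 3 and 2 without chow replicate 1 or 3. Of 27 lysosomal genes 3 were called higher and 1 lower (median -0.10), shares below those of all tested genes (14.7% and 5.72%). Of 5 tested erythroid markers 0 were called, with summed levels from 12226 to 39717 normalized counts on chow and from 21375 to 37521 on HFCF, and 4 would be called without chow replicate 3. The pancreatic enzymes Cela1 and Cela2a, 2 of 2 tested pancreatic markers, were lower, with summed levels of 837 to 1734 on chow and 350 to 384 on HFCF. Cela2a passed the filter with the help of its chow livers.

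The chow table in turn lists 682 genes that the HFCF table does not. The most abundant in chow livers labelled HuRHep-/- was Ugt1a8, with 34, 7 and 0 counts.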
